A study of Mus musculus with 2 samples.

Results

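TET2 is an enzyme that oxidises 5-methylcytosine, the methylated base found mainly at CpG dinucleotides, to 5-hydroxymethylcytosine. Unlike TET1 and TET3, it carries no CXXC zinc finger, the domain with which those proteins hold unmethylated CpGs, and it is brought to chromatin largely by partner proteins. Introns hold many of the enhancers of mammalian genes, and first introns are often richer in regulatory elements than later ones.

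The intronic TET2 peaks away from promoters were described here in mouse adipocytes. They were chosen from the deposited peak list by position: an autosomal peak was a member when its midpoint lay more than 3 kb from every GENCODE M21 transcription start site (TSS), inside the body of a protein-coding gene and in no annotated exon, and when under 80% of its bases were soft-masked, which is the mark the reference genome gives to repeats. By this rule 1495 of 14103 peaks (10.6%) were members. Of these, 355 lay in the first intron and 1132 in a later intron of the longest transcript of their host gene, and 8 lay outside the introns of that transcript. The limit on repeats removed 360 of 1855 intronic peaks. At the edge of the limits, the member closest to a TSS was 3004 bp away and the nearest intronic peak left out was 2994 bp away, and soft-masked bases reached 79.7% inside the limit and began at 80% outside it.

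Primary adipose-derived stem cells (ASCs) were grown from mouse adipose tissue and differentiated in vitro with IBMX, dexamethasone and insulin, then kept in insulin. TET2-bound chromatin from these cells gave 1 ChIP library, and 1 input library of chromatin without immunoprecipitation served as its control in peak calling. No genotype, sex, age or second condition is given by the labels, and cultures differentiated in this way also hold cells that have not become adipocytes. With 1 library there is no replicate error, no p-value was computed across peaks, and every 95% interval below covers counting error only. The value given for each peak was read here as a −log10 p from peak calling, and the read depth behind it is unknown from the list. Some values are weaker than the p-value cutoff that the paper states for peak calling. The unit of the values is therefore uncertain, and every statement on peak strength below rests on this reading.

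The sequences of 8 members show the kinds of DNA found at the midpoint of intronic TET2 peaks. Each is 200 bp of the plus strand of GRCm38, centred on the peak midpoint. The first set was chosen because it holds the letters GCGCNTGCGC of the NRF1 motif on either strand, which are in capitals. Abcg1, which encodes a cholesterol exporter, has them in ordinary sequence at chr17:31073334-31073533, whereas the Rab3c run at chr13:110149031-110149230 and the Vangl1 run at chr3:102175757-102175956 have them inside alternating CA/TG and CG repeats.
Abcg1: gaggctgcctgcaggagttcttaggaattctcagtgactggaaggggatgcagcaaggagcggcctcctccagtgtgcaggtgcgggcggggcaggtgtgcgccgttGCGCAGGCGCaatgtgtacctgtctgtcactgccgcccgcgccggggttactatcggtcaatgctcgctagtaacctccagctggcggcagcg
Rab3c: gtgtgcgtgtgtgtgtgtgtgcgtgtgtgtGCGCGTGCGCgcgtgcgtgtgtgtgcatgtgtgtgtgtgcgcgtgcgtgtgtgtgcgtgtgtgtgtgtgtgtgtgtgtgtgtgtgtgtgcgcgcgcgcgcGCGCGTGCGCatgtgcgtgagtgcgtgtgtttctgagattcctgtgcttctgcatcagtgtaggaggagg
Vangl1: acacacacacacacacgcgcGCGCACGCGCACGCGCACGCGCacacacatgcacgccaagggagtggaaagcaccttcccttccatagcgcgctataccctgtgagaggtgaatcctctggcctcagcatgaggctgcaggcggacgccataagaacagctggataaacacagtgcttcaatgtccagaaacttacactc

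In the second set the capitals mark CpGs. These members were chosen to span the range from many CpGs to nearly none: Klf5 at chr14:99313042-99313241 with 9 in the run, Smad3 at chr9:63651069-63651268 with 8, Enox1 at chr14:77483196-77483395 with 8, Prdm16 at chr4:154450579-154450778 with 3 and Tspan9 at chr6:128086134-128086333 with 1. The midpoint of the Klf5 peak lay 9 bp from an exon, so its run reaches into coding sequence. The Tspan9 run, and part of the Enox1 run, are tandem repeats of a GC-rich unit.
Klf5: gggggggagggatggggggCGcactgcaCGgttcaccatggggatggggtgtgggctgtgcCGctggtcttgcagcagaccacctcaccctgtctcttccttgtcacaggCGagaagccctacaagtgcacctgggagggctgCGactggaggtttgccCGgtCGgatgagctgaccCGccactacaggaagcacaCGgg
Smad3: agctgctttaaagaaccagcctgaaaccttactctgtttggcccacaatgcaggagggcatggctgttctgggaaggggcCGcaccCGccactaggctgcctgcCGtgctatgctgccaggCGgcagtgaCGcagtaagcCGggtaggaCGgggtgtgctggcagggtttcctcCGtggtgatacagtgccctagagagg
Enox1: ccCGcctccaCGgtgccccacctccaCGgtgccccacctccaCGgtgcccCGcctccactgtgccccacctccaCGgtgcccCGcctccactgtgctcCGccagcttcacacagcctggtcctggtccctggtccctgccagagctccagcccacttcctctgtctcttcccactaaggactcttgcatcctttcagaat
Prdm16: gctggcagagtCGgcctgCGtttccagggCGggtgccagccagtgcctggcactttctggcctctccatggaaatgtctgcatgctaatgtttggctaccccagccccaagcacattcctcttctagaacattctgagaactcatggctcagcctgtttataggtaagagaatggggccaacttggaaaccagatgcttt
Tspan9: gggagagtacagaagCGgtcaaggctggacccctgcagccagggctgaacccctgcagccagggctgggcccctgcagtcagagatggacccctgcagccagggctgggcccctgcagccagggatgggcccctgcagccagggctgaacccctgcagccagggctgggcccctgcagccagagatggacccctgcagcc

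Intronic TET2 peaks were short and mostly weak. Their length ran from 375 to 975 bp with a median of 386 bp, and 683 of them (45.7%) had the shortest length in the list. Values of −log10 p lay between 3.07 and 170.4, and their median was 5.91 (95% interval 5.68 to 6.06), which was lower than the median of 6.90 (6.80 to 6.95) at the 5707 peaks within 1 kb of a TSS and of 6.96 (6.76 to 7.07) at the 1182 exonic peaks over 3 kb from a TSS. The 2104 peaks outside genes were closest, at 6.21 (6.06 to 6.21). A −log10 p of 10 or more was reached by 84 intronic peaks (5.62%), against 11% of the peaks near a TSS and 11.8% of the exonic ones. Values under 5 made up 325 members (21.7%), against 15.4% of all autosomal peaks. Under this reading of the list, such peaks would not pass the p-value cutoff that the paper states. Only 196 distinct values occurred among the 1495 intronic peaks, and a single value, 5.13, was shared by 287 of them, so neighbouring ranks among the weak peaks cannot be separated.

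The density of intronic TET2 peaks in first introns was close to that in later introns, and whether it was lower depended on the gene models. The members were set against all intronic bases that the rule could have accepted, 716.6 Mb in all, which gave 2.09 peaks per Mb (1.98 to 2.19). First introns held 2.04 per Mb over 173.9 Mb (1.83 to 2.27) and later introns 2.12 per Mb over 532.9 Mb (2.0 to 2.25). The ratio of first to later introns was 0.961 (0.851 to 1.08), an interval that includes 1. With RefSeq gene models in place of GENCODE the ratio was 0.858 (0.758 to 0.969), an interval below 1. The peaks in both also had the same strength and composition within their intervals: median −log10 p was 5.91 (5.13 to 6.21) in first and 5.93 (5.65 to 6.18) in later introns, and median GC content was 51.1% (49.6 to 52.5) and 50.7% (49.9 to 51.7). Along first introns, in 5 equal stretches from the 5′ to the 3′ end, the density was 1.68, 1.92, 2.33, 2.09 and 2.05 per Mb, with overlapping intervals.

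Intronic TET2 peaks became sparser with distance from the nearest TSS. Density was 2.40 per Mb (2.08 to 2.76) at 3 to 5 kb, 2.27 (2.05 to 2.52) at 10 to 20 kb and 1.46 (1.15 to 1.83) beyond 100 kb. Introns 3 to 10 kb from a TSS had 1.39 times the density (1.19 to 1.63) of introns over 50 kb away, with 539 and 231 peaks. Base composition changed along the same axis: the median GC content of 400 bp intronic windows was 43.5% under 10 kb from a TSS and 40.2% at 50 kb or more. When the number of peaks expected in each zone was taken from the GC content of its windows, the near zone held 0.893 times its expected number (0.819 to 0.971) and the far zone 1.18 times (1.03 to 1.34), so the near-to-far ratio turned to 0.756 (0.647 to 0.886). The excess near TSSs was thus present per base and reversed at equal GC content.

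The closest 100 bp to an exon held the highest density of intronic TET2 peaks of any distance. There 119 midpoints (7.96% of members) gave 6.18 per Mb (5.12 to 7.40), and at 100 to 200 bp the density was 2.94 (2.19 to 3.85). From 200 bp outward it was 1.95 per Mb, and the nearest 100 bp had 3.17 times that density (2.61 to 3.83). No peak is shorter than 375 bp, so all 119 necessarily reach into the exon. In all 176 members shared bases with an exon, and 112 of the 119 lay in later introns. Their median GC content was 59.0% (58.2 to 59.7) against 49.7% (48.9 to 50.4) at 200 bp or more. The peak in Slc27a1, which encodes a fatty acid transport protein, is one of them: it spans 942 bp at chr8:71583946-71584887 around an intron of 92 bp, holds 58 CpGs and had a −log10 p of 10.8. Klf5, a transcription factor of early adipogenesis, has another, at chr14:99312893-99313390 with a −log10 p of 6.21. Without the peaks that touch an exon, density was 1.95 per Mb (1.84 to 2.06).

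**Figure D1:**
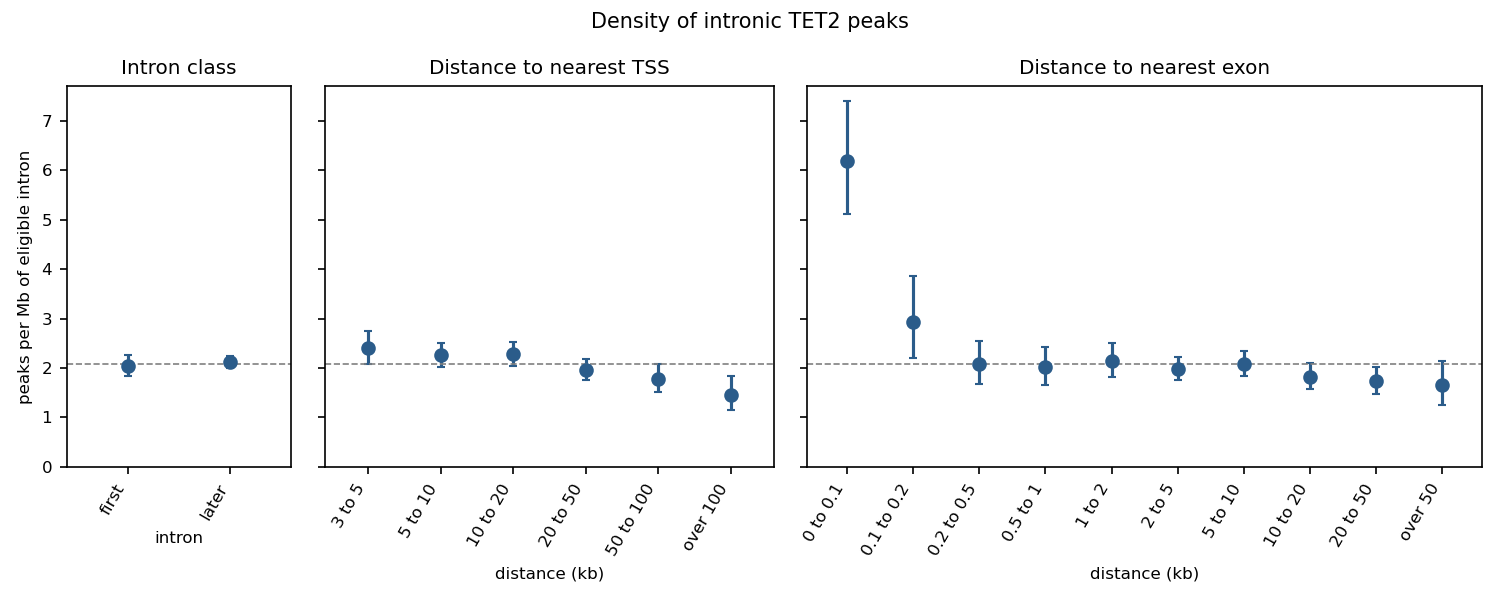
Intronic TET2 peaks per Mb of eligible intron (y axis) by intron class, by distance from the nearest TSS and by distance from the nearest exon, both in kb on the x axis. Points are densities, bars exact 95% Poisson intervals, and the dashed line is the density over all eligible introns, 2.09 per Mb. First and later introns lie near the line, density falls to 1.46 beyond 100 kb from a TSS, and the first 100 bp beside an exon stand at 6.18.

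Intronic TET2 peaks were GC-rich islands in ordinary intron. In the 200 bp at the midpoint the median GC content was 53.5%, while the windows of the same size centred 1 kb to either side had a median of 44.8%. The median difference within a peak was 8.0 percentage points (7.25 to 8.5), and 995 of the 1495 members (66.6%) exceeded both flanks. Over the whole peak the median was 50.7% (50 to 51.7), close to the 50% (49.3 to 50.5) of peaks outside genes, and below the exonic peaks at 59.6% (59.3 to 59.9) and the peaks near a TSS at 65.6% (65.4 to 65.8). Eligible intronic windows of 400 bp had a median of 42.2%. The CpG ratio, the number of CpGs over that expected from the C and G content, had a median of 0.268 (0.257 to 0.283) in members and 0.164 in the windows. It was 0.777 (0.772 to 0.782) near TSSs.

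**Figure D2:**
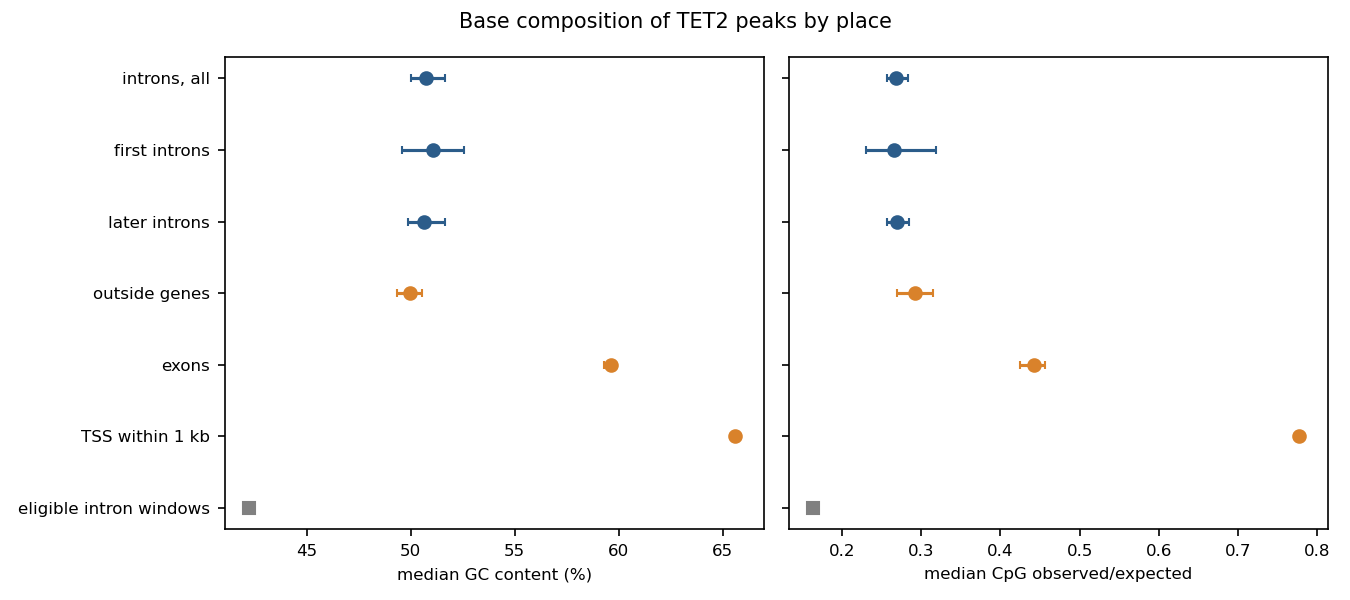
Median GC content in percent and median CpG observed over expected of TET2 peaks by place, with order-statistic 95% intervals. Intronic peaks, in blue, have 50.7% GC and a CpG ratio of 0.268, near the peaks outside genes and well below exonic and TSS peaks, in orange. The grey square marks the medians of all eligible intronic windows of 400 bp.

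The density of intronic peaks rose steeply with GC content, and at a given GC content it was highest with 8 or more CpGs. Members were counted per 10000 eligible windows of the same composition, over the 200 bp at the midpoint or at the window centre. Windows under 45% GC held 3.94 members per 10000 (3.56 to 4.35), those of 55 to 60% held 33.8 (29.3 to 38.8) and those of 65% or more held 1463 (1240 to 1714). Windows of 55 to 60% GC with 0 to 1 CpG held 12.9 per 10000 (7.49 to 20.6), while those of the same GC content with 8 or more CpGs held 305.3 (247.9 to 372.1). At 50 to 55% GC the values were 6.32 (4.52 to 8.61) and 100.0 (72.1 to 135.2). GC content also went with density where CpGs were nearly missing, since windows with 0 to 1 CpG rose from 4.06 per 10000 (3.6 to 4.57) under 45% GC to 559.4 (319.8 to 908.5) at 65% or more. Below 8 CpGs the order by CpG number was weaker. In each band under 60% GC, windows with 0 to 1 CpG had a higher density than those with 2 to 3. Their intervals overlapped except at 45 to 50% GC.

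Put as shares, 414 members (27.7%, 25.4 to 30) had 8 or more CpGs in the 200 bp, against 0.743% of all windows and 8.76% of windows weighted to the members' GC content. The mean was 4.97 CpGs per 200 bp in members, 1.66 in all windows and 3.13 at the members' GC content. At the other end, 238 members (15.9%, 14.1 to 17.9) had no CpG in the 200 bp, close to the 18.0% of windows weighted to the same GC content. The Smad3 and Tspan9 runs above are examples among strong peaks: Smad3, a transducer of TGF-β signalling, has 16 CpGs over a peak of 515 bp (−log10 p 14.3), and Tspan9, a tetraspanin gene, has 2 over 586 bp at 67.2% GC (−log10 p 11).

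**Figure D3:**
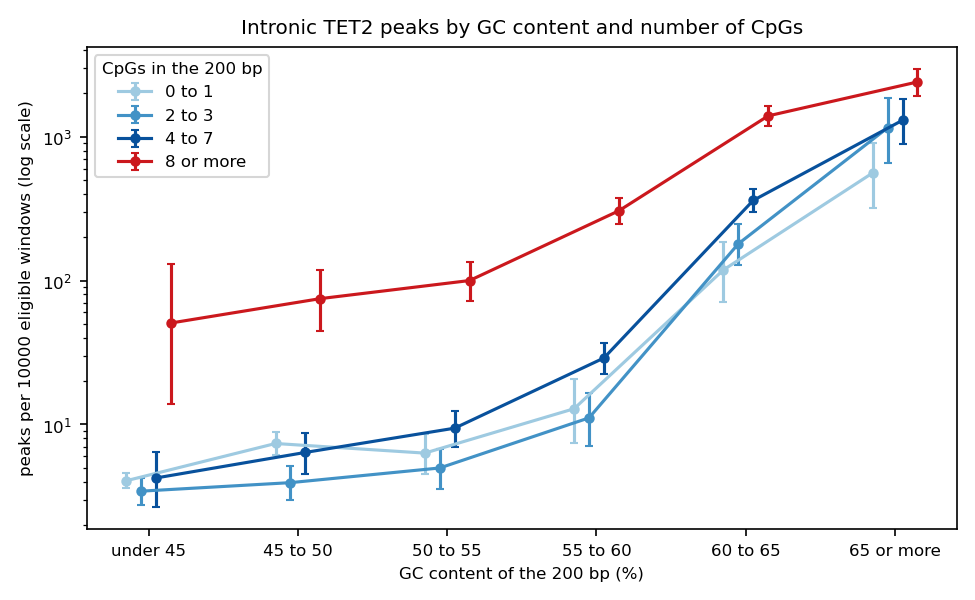
Intronic TET2 peaks per 10000 eligible windows (y axis, log scale) against the GC content of the 200 bp in percent, with a line for each class of CpG number and exact 95% Poisson intervals. Every line ends far higher than it begins, and the red line of 8 or more CpGs lies above the others in each GC band, at 305.3 against 12.9 for 0 to 1 CpG at 55 to 60% GC.

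A full CpG-island composition was uncommon but far above its background. Members with at least 50% GC and a CpG ratio of at least 0.6 over the peak numbered 92 (6.15%, 4.99 to 7.49), against 0.0958% of eligible windows, 11.2% (9.90 to 12.6) of peaks outside genes, 21.9% (19.6 to 24.4) of exonic peaks and 75.6% (74.5 to 76.8) of peaks near a TSS. Of the 92, 26 were in first and 66 in later introns, and 7 (7.61%) lay within 1 kb of a TSS that RefSeq annotates, compared with 33 of the other 1403 members (2.35%). These 7 include Fat1, a cadherin gene, at chr8:44938236-44938692 and Grik4, a kainate receptor subunit gene, at chr9:42897276-42898022, which were 378 bp and 175 bp from a RefSeq TSS. The median −log10 p was 6.22 (6.21 to 7.16) in the CpG-rich members and 5.78 (5.32 to 6.06) in the rest.

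Stronger peaks were more GC-rich. The median −log10 p was 5.13 in each 5-point class from under 35% to 45 to 50% GC, 6.21 in the classes of 50 to 55% and 55 to 60%, and 6.24 (6.21 to 6.76) at 60 to 65%. A −log10 p of 8 or more was reached by 2 of 138 members (1.45%) at 35 to 40% GC and by 77 of 322 (23.9%) at 55 to 60%. Among the 218 members at or above 8, the median GC difference to the flanks was 15.0 points (13.2 to 16.0).

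Motifs were searched as plain letters on both strands in the 200 bp at the midpoint, and the share of members holding them was compared with the flanks 1 kb away. SP1, which binds GC boxes, had its letters GGGCGG in 147 members (9.83%), against 2.58% of flank windows, a ratio of 3.82 (2.92 to 4.99). AP-2 letters, GCCNNNGGC, occurred in 162 members (10.8%) against 4.01%, a ratio of 2.70 (2.15 to 3.39), and the letters of both can share bases. C/EBP factors drive adipocyte differentiation, and their letters TTGCNNAA were rarer at the midpoint than beside it, in 80 members (5.35%) against 8.06%, a ratio of 0.664 (0.520 to 0.848). EBF letters (CCCNNGGGA) had a ratio of 2.13 (1.51 to 3.02), the E-box CACGTG 1.45 (1.06 to 2.0), STAT letters (TTCNNNGAA) 0.739 (0.560 to 0.975) and TEAD letters (ACATTCC) 0.637 (0.422 to 0.964). AP-1 (TGANTCA), RUNX (TGTGGTT), CTCF (CCANNAGNNGGC) and ETS (CCGGAAG) had intervals that include 1. Of the long patterns, that of a PPARG direct repeat (AGGNCANAGGNCA) was in 4 members, that of the glucocorticoid receptor (GNACANNNTGTNC) in 2 and that of NFI (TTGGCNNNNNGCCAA) in 0, which allows a share of up to 0.246%.

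Most of these ratios moved toward 1 once windows of the members' GC content were the background. All eligible windows held SP1 letters in 1.79% and C/EBP letters in 8.77%, and weighted to the members' GC content these shares were 8.62% and 5.75%. Against them SP1 had a ratio of 1.14 (0.971 to 1.33), C/EBP 0.930 (0.741 to 1.15), EBF 0.856 (0.662 to 1.09) and STAT 0.979 (0.759 to 1.24), all with intervals that include 1. AP-2 kept a ratio of 1.32 (1.13 to 1.52) and the E-box 1.41 (1.09 to 1.79). Weighting to both GC content and CpG number left AP-2 at 1.24 (1.07 to 1.44), brought the E-box to 1.03 (0.794 to 1.30) and turned SP1 to 0.848 (0.722 to 0.988). Letters in a window are a description and not a bound site.

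**Figure D4:**
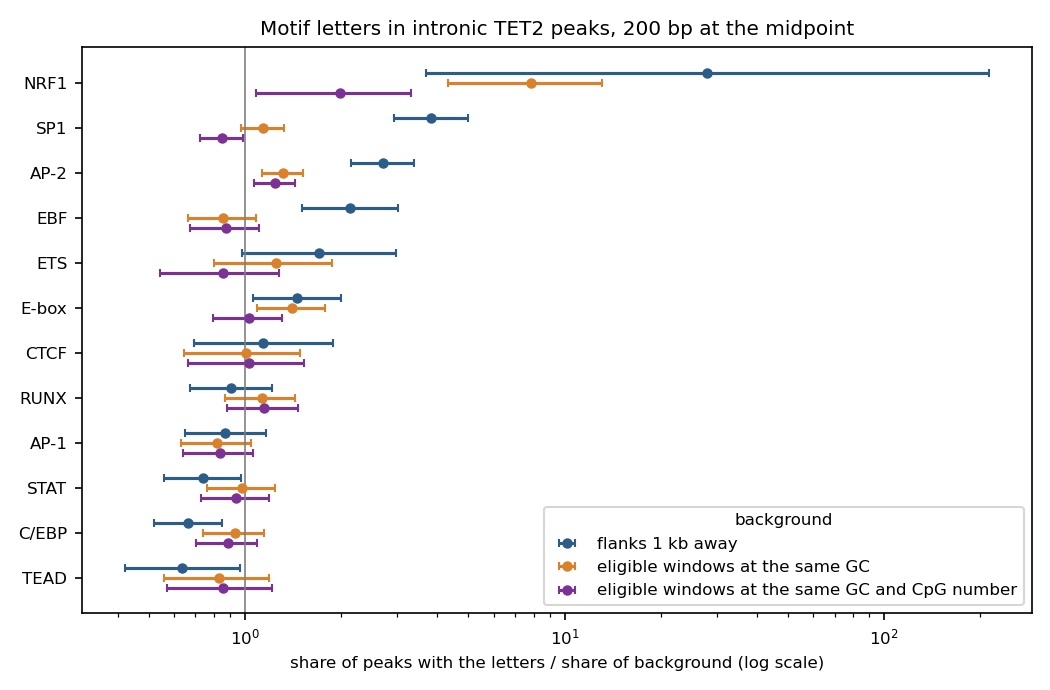
Share of intronic TET2 peaks with each set of motif letters over the share of the background (x axis, log scale), with 95% intervals. Blue compares with flanks 1 kb away, orange with eligible windows weighted to the same GC content and purple with windows weighted to GC content and CpG number. SP1 moves from 3.82 through 1.14 to 0.848, while AP-2 stays above 1 at 1.24.

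The NRF1 letters, GCGCNTGCGC, had the largest ratio, in 14 members (0.936%) against 1 of the flank windows (0.0334%), which gives 28.0 (3.69 to 212.7). Against windows of the same GC content the ratio was 7.86 (4.30 to 13.1), and at the same GC content and CpG number 1.98 (1.08 to 3.31). NRF1 is an activator of nuclear genes for mitochondrial proteins that binds unmethylated CpG sites. In 13 of the 14 members the 200 bp held an alternating purine-pyrimidine run of at least 20 bp, and in 12 the letters lay wholly in soft-masked bases. Abcg1 (chr17:31073190-31073676, −log10 p 10.2, 28 CpGs) was the strongest of the 14, and its run is printed above. Alternating runs were common in intronic peaks as a whole, in 224 members (15.0%, 13.2 to 16.9) against 3.65% of their flank windows, and in 79 of the 414 members with 8 or more CpGs. Of those 414, 261 had neither an alternating run nor a base in an exon, and 162 had no soft-masked base in the 200 bp.

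The largest −log10 p values belonged to peaks with copies elsewhere in the genome. Copies were matches of at least 100 bp and 90% identity, and 1443 members (96.5%, 95.5 to 97.4) had none. Matches that overlap were counted separately, so a count of copies can exceed the number of places. The strongest of all, at chr16:57391186-57391879 in intron 1 of Filip1l (−log10 p 170.4), matched 17 other places. The next, in intron 3 of the cell adhesion gene Chl1 at chr6:103648875-103649553 (123.2), had 8 matches. Of these, 7 lay on chromosome 2 between 98662500 and 98666525 and overlapped one another in part, so they are fewer than 7 places. A peak in intron 2 of Gphn, which encodes the synaptic scaffold gephyrin, at chr12:78350663-78351147 (36.6) matched 5. Reads from such copies can be placed at any of them, so these 3 values cannot be ascribed to the intron. Unlike most members, Chl1 and Gphn were less GC-rich than their flanks, with GC differences of -10.25 and -4.50 points. The strongest peak without a copy was in intron 19 of 2210408I21Rik at chr13:77438590-77439304 (22.6), again with a GC content below its flanks, and it was the only such peak above 20.

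Below these, the leading peaks in later introns had −log10 p between 13.6 and 15.0 and GC contents of 49.5 to 61.8%. They lay in Cox16 and Tmem267, with 3 and 7 copies, and, without copies, in Enox1, Smad3, Exoc4, Gsg1l and Mnd1. Cox16 encodes an assembly factor of cytochrome c oxidase, Exoc4 a subunit of the exocyst, Gsg1l an AMPA receptor auxiliary subunit and Mnd1 a meiotic recombination protein. The Smad3 peak lies at chr9:63650911-63651425 in intron 8, 783 bp from an exon, and Smad3 held a second member in its first intron, 20648 bp away, at 5.13. In first introns the values after Filip1l ran from 11 to 13.3. These peaks lay in Plcl1 with 18 copies, Raph1 with 6, and, without copies, in Gm20388, Rbfox1, Acer3, Gtf2ird1, Cfap20, Rgs9 and Nrg3. Rbfox1 encodes a neuronal splicing factor, Acer3 an alkaline ceramidase, Rgs9 a regulator of G protein signalling and Nrg3 a neuregulin. Cfap20 combined 63.0% GC with 5 CpGs in 573 bp, while Rgs9 had 46 CpGs in 449 bp.

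The members lay in 1224 host genes, and 1022 of these had a single one. Across autosomal coding genes with eligible intron, 8.13% (1224 of 15053) held at least 1 intronic TET2 peak. The genes with most members were chosen for their count, so their densities are a description. Gm20388 had 11, but this is a read-through gene model of which all 11 members lie in no other coding gene. Gse1, which encodes a coiled-coil protein of histone deacetylase complexes, had 7 members in 306.3 kb of eligible intron, or 22.9 per Mb (9.19 to 47.1), with −log10 p of 5.29 to 11.5 and GC contents of 59.2 to 61.7%. Prdm16, a determinant of brown and beige fat, had 5 in 273.4 kb, 18.3 per Mb (5.94 to 42.7). Wdfy4, which acts in antigen cross-presentation, and Col23a1, a transmembrane collagen gene, had 4 each, at 22.3 (6.07 to 57.0) and 14.3 (3.89 to 36.6) per Mb. Other genes with 4 or 5 members were very long: the glypican gene Gpc5 and the adhesion gene Lsamp had 5 each in 1407 and 2121.5 kb, and Camta1 and Tenm2 had 4 each in 793.8 and 1174 kb, at 2.36 to 5.04 per Mb over these genes. In both groups every member was without a copy.

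A peak at the promoter of the host gene went with little difference in the density of intronic peaks, and whether the interval of the ratio excluded 1 depended on the promoter window. Genes with a TET2 peak midpoint within 1 kb of one of their own TSSs held 2.17 intronic peaks per Mb (620 peaks) and the others 2.03 (875 peaks), a ratio of 1.07 (0.961 to 1.18). With the promoter peak taken within 3 kb the ratio was 1.11 (1.001 to 1.23), an interval just above 1. Among genes with CpG-rich promoters only, the ratio was 1.003 (0.882 to 1.14). Over bases outside repeats, an alternative chosen after seeing the data, it was 1.03 (0.927 to 1.14). Counted by gene, 11.2% (10.3 to 12.2) of the 4313 genes with a promoter peak had an intronic one, against 6.89% (6.42 to 7.39) of 10740 genes without. The former also had more intron to carry one, a median of 21.8 kb of eligible intron against 12.2 kb.

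Fat and insulin genes were described by lists, to be set beside the 8.13% of all coding genes that held an intronic peak. Of 27 genes of fat storage and lipolysis with eligible intron, 2 (7.41%, 0.910 to 24.3) had an intronic peak: the fatty acid elongase Elovl6 (chr3:129612742-129613116, −log10 p 6.21) and malic enzyme Me1 (chr9:86611122-86611635, 9.80). Among adipogenic transcription factors 7 of 34 (20.6%, 8.70 to 37.9) had 13 peaks in all. Besides Prdm16 and Klf5 these included the sterol regulator Srebf2 with 2 peaks (8.85 and 11), the nuclear receptor corepressor Ncor1 with 1 (4.86), and the retinoid receptors Rxra (6.98) and Rarb (10.1), of which the Rarb peak had 8 copies. The 5 Prdm16 peaks spread over introns 1 to 3 between chr4:154413884 and 154564329 with −log10 p of 4.12 to 9.59. Insulin signalling had peaks in 9 of 38 genes (23.7%, 11.4 to 40.2). These included the receptor gene Igf1r (5.13), the kinases Pdpk1 (4.12), Mtor (6.21), Prkca (5.13 and 7.16) and Prkce (8.10), the mTORC1 subunit Rptor (6.16), the Ras exchange factor Sos1 (11.5) and Tbc1d4, which restrains GLUT4 traffic, with 2 peaks of 5.13.

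Per Mb of eligible intron these lists did not differ from all coding genes beyond counting error. Adipogenic factors had 2.44 peaks per Mb (1.30 to 4.18), insulin signalling 3.06 (1.53 to 5.48) and fat storage 2.32 (0.281 to 8.38), against 2.09 over all genes. Their higher shares went with a median of 88.9 and 73.1 kb of eligible intron in adipogenic factors and insulin signalling, against 14.4 kb over all genes. Chromatin regulators had peaks in 5 of 45 genes (11.1%, 3.71 to 24.1): Arid1b, a SWI/SNF subunit, with 3, Cxxc5, a CXXC protein, with 2, Hdac7 and Jarid2 with 1 each, and Prdm16, which is on both lists. Extracellular matrix genes had peaks in 3 of 40 (7.50%, 1.57 to 20.4), namely Col23a1, the procollagen protease Adamts2 with 2 and the perlecan gene Hspg2 with 1. The same share over all coding genes was 8.13%. The adipocyte marker genes Adipoq, Fabp4, Plin1, Lpl, Cd36, Lep, Pparg and Cebpa had no intronic peak in the 6 that hold eligible intron. Those 6 genes hold only 0.211 Mb of it in all. One macrophage marker, Adgre1, had a peak at 5.13, and the stromal progenitor, endothelial and muscle markers had none. A peak list holds no expression values, so the markers say nothing of which cells were present.

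Large neural adhesion and synaptic genes, a list made of long genes, had the highest share of genes with an intronic peak and a low density. An intronic peak was found in 38 of 60 (63.3%, 49.9 to 75.4), against 8.13% of all coding genes. At 1.21 peaks per Mb (0.942 to 1.54) the density in the listed genes was below the 2.09 (1.98 to 2.19) of all genes. Their eligible intron had a median of 888.1 kb. The name of the list is a broad label that does not describe every gene on it, such as Sgcz and Galntl6. Lsamp had 5 and Tenm2 4, while Csmd1, Dpp10, Cdh12, Pcdh9, Pard3b, Rbfox1 and Sgcz had 3 each. Pcdh15, Cntnap4, Ptprd, Sorcs3, Dlg2, Kcnd2, Lrp1b, Dpp6 and Robo1 had 2 each. The 20 genes with 1 were Cntnap2, Cntn4, Cdh4, Cdh13, Nrg1, Nlgn1, Magi2, Kcnma1, Grik2, Dscaml1, Fgf14, Galntl6, Csmd3, Ptprt, Nrxn3, Nrg3, Robo2, Rbfox3, Sorcs1 and Tenm4. The strongest of the 68 peaks were those in Sgcz (12.2), Rbfox1 (11.7) and Nrg3 (11.2), and 7 reached 8.

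**Figure D5:**
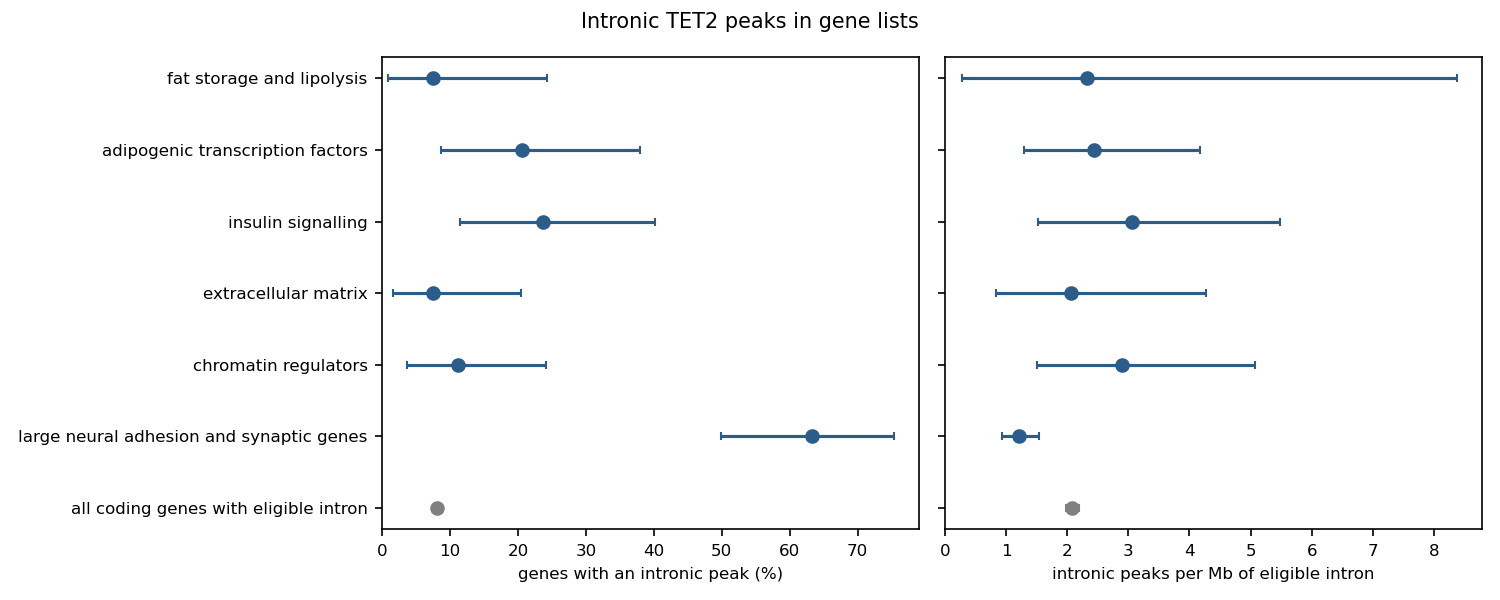
Left, share of genes of each list with an intronic TET2 peak in percent, and right, intronic peaks per Mb of eligible intron in the same genes, with exact 95% intervals and all coding genes in grey. Large neural adhesion and synaptic genes have the highest share, 63.3%, and the lowest density, 1.21 per Mb.

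Members overlapped known mouse regulatory elements rarely, though more often than the area of those elements. RefSeq functional elements covered 0.0962% of the eligible bases, and 7 members (0.468%, 0.188 to 0.962) overlapped one, each with its midpoint inside. These 7 members had GC contents of 58.4 to 68.8%, and no background of equal GC content was computed for the overlap. All 7 elements are annotated as enhancers. They lie in Gnb1l (chr16:18555309-18555691, −log10 p 9.39), 2900026A02Rik (7.72), Cxxc5 (6.94), Gnao1 (6.21), Mvb12b (5.13), Mical3 (5.00) and Zfpm1 (4.86). RefSeq lists those of Gnb1l, 2900026A02Rik, Cxxc5, Mvb12b and Mical3 as active in the limb of mouse embryos, among other places for some. The Cxxc5 element is also listed in the forebrain and midbrain. That of Gnb1l is also listed in the eye, heart and facial mesenchyme, and that of Mvb12b in the trigeminal ganglion. The Gnao1 element is listed in the neural tube and brain, and that of Zfpm1 as an erythroid enhancer. Whether that annotation holds enhancers of adipocytes was not examined. The TET2 peak nearest to a member was a median of 59.6 kb away, 122 members (8.16%) had one within 10 kb, and 33 had another member there. No background spacing was computed, so these distances do not show whether members lie apart or together. By chromosome the density ran from 1.57 per Mb (1.20 to 2.02) on chromosome 7 to 2.72 (2.13 to 3.43) on chromosome 17.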

How the data were processed

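TET2 ChIP-seq of adipocytes differentiated from ASCs was used, with 1 ChIP and 1 input library, and no file of the input by itself was analysed here. Per the methods and labels, the authors trimmed reads, aligned them with Bowtie and called peaks with MACS2 2.1.0 against the input. The deposited list gives intervals and a value for each peak, read here as its −log10 p, a reading that could not be checked. It gives no depth, so single values have no error. The labels name mm10 and the methods GRCm39. The intervals were read on GRCm38 (mm10), where 0 midpoints lie in assembly gaps, as 1-based positions, with GENCODE M21 and RefSeq annotation of that build.

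Eligible intron was every autosomal base at which a midpoint would meet the rule. Where coding genes overlap, which touched 40 members, the host was the gene with the smallest body. Base composition and motifs were compared with flanks and with all 1634129 eligible windows of 400 bp under 80% soft-masked, weighted in 2-point GC strata, also split by CpG number. Shares have exact binomial, densities exact Poisson, density ratios exact conditional, motif ratios log-normal and medians order-statistic 95% intervals. Pairing of samples was not an issue with 1 library of each kind. The motif intervals against flanks treated each member and its own flanks as independent. Copies were sought with blastn 2.17.0, starting outside soft-masked bases, so copies of repeats are undercounted. Statistics used scipy 1.17.1 and numpy 2.4.6 in Python 3.11.15, with pandas 2.3.3 for tables and matplotlib 3.10.9 for figures, and the steps were tested on simulated data.

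Genes named are the hosts of the 10 strongest members in first and in later introns, the genes with most members and every list gene with a member, except that some genes and sequences are not reported here. Other genes were chosen as examples after their values were seen. Members and gene lists were chosen with earlier results of these data known. Alternatives were thresholds on −log10 p, TSS distance, repeats, exons, TSS sets and gene models.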

Additional observations from a re-analysis of the deposited data

How the results depend on the processing

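The rate of 2.09 intronic peaks per Mb followed the choice of peaks and bases. It was 1.63 at a −log10 p of at least 5, 0.304 at 8 (218 peaks), 1.55 under 50% soft-masked, 1.95 without peaks touching an exon, over bases at least as far from exons as a midpoint of such a peak usually is, 2.21 with RefSeq gene models and, by an alternative chosen after seeing the data, 2.95 over bases outside repeats. The GC difference to the flanks rose to 9.38 points at a −log10 p of at least 5 and to 15.0 at 8. The CpG-rich share was 10.1% at 8, 2.54% with limits of 0.65 and 55%, and 12.2% in the 200 bp at the midpoint. Single-copy members fell to 94.3% when copies of 80% identity counted. The near-to-far ratio turned to 0.756 when expected numbers came from GC content, and the SP1 ratio to 0.848 at equal GC content and CpG number, both chosen after seeing the data. Of 67 alternatives to the main values, 53 stayed within the main 95% interval, or within 1.5 times the main count. The first-to-later and promoter ratios stayed there under every alternative, but their own intervals left 1 with RefSeq gene models, at 0.858 (0.758 to 0.969), and with promoter peaks within 3 kb, at 1.11 (1.001 to 1.23). Depth and replicate error are unknown, and the input library's coverage at GC-rich introns was not analysed here.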

Other observations

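Short introns held more peaks per base than long ones. Introns under 2 kb had 3.57 per Mb (3.01 to 4.21), those of 10 to 20 kb 2.13 (1.83 to 2.46) and those over 100 kb 1.76 (1.58 to 1.97), which were 143, 187 and 327 peaks. Most of a short intron lies near an exon, and the 2 measures were not separated. Later introns showed no gradient along their length beyond counting error, with 2.25 per Mb (1.97 to 2.56) in the 5′ stretch of 5 equal ones, 1.97 (1.72 to 2.25) in the middle and 2.29 (2.01 to 2.59) in the 3′ stretch.

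CpG-rich members include several genes of transcription and signalling without copies: Cux2, a homeobox gene, at chr5:121948365-121949004 had 40 CpGs in 640 bp with a −log10 p of 11.8, Zfp64 at chr2:168935292-168935740 had 28 in 449 bp with 13.3, and Sh3pxd2a at chr19:47343272-47343799 had 44 in 528 bp with 7.79. These were chosen after their values were seen. Alternating purine-pyrimidine runs of at least 20 bp occurred in 30 of the 92 CpG-rich members (32.6%, 23.2 to 43.2) and in 4.35% of their flank windows.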
